A study of Rattus norvegicus with 12 samples.

Results

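The coagulation cascade, the fibrinolytic enzymes and the complement system are families of plasma proteins, and the genes described here are 44 of them, 23 of coagulation and fibrinolysis and 21 of complement, in the liver of Long Evans Cinnamon (LEC) rats. Members were chosen by name, and for each the probe set that the array's annotation gave to that gene alone, with the highest mean level, was read. Of the 44 members, 36 had such a probe set (19 coagulation, 17 complement) among 14217 named genes. Kng1 shared its probe set with Kng2 and Kng2l1, C4a shared 1 with C4b, and C2 and Cfb shared 4, so these 5 members are given only as shared probe sets. F7, F11 and F13b were not analysed here.

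The 12 arrays came from rats labelled male, kept specific pathogen-free and viral antibody-free, and each measured a pool of liver RNA. LEC rats carry a defective Atp7b, the copper transporter, and accumulate copper in the liver, with hepatitis and later liver tumors. Long Evans Agouti (LEA) rats are the control strain. Tumor and adjacent nontumor liver of LEC rats aged 67 weeks gave 4 arrays each, every array being a mix of RNA from 2 of 8 tumor and nontumor pairs, and the other arrays were single pools: LEC liver of rats aged 4, 26 or 39 weeks, and LEA liver of rats aged 67 weeks. Values are log2 levels, so a difference of 1 is 2-fold, and levels of different genes are not compared because probe sets differ in brightness.

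The array medians lay between 7.39 and 7.51, and the brightest probe set of each array between 14.32 and 14.59. Across 27 control probes for sequences that rat liver does not hold, the highest level per array was 5.52 to 6.22, which is called the absent range below. The sex-linked genes did not follow the labels: Xist was at 11.36 to 13.12 on 10 arrays and at 5.27 and 5.67 on the 26-week and 39-week arrays, where the Y-linked Eif2s3y was at 8.90 and 8.18 against 3.65 to 3.81 elsewhere. The 4-week array had the same pattern as the 67-week arrays, so age and this difference cannot be told apart for the 26-week and 39-week arrays only. In tissue RNA, fewer cells of a type and less RNA per cell cannot be told apart either, and p-values measure only the spread between these pools.

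Most of these proteins are made by hepatocytes and secreted into blood as inactive precursors that proteases cut in sequence. Coagulation starts from tissue factor, a membrane protein outside the blood, or from contact factors, passes through factor X and prothrombin, and ends when thrombin turns fibrinogen into fibrin, which plasmin later dissolves. Complement starts by the classical, lectin or alternative path, meets at C3, and ends in a membrane pore built of C5 to C9. Several of them, fibrinogen first, are acute phase proteins that interleukin 6 raises in hepatocytes. Tissue factor, tissue factor pathway inhibitor and the plasminogen activators are made largely by endothelial, stromal and epithelial cells, and C1r, C1s, C1 inhibitor, C3 and C4 are also made by fibroblasts and macrophages.

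The promoters of the 3 fibrinogen chains are shown because the 3 genes moved together across the arrays and lie next to each other on chromosome 2. RefSeq has no other protein-coding gene between them. Their order across the tumor arrays was not particular to them, since 26 of the 27 members that fell in tumor had it. Each line holds the 250 bases before the start site, 5' to 3' on the gene's strand, from RefSeq on GRCr8, at chr2:170671919-170672168 (plus strand, the first of 2 listed starts) for Fga, chr2:170700876-170701125 (minus strand) for Fgb and chr2:170652833-170653082 (plus strand) for Fgg. Capitals mark CTGGGA or its reverse complement TCCCAG, the core of the interleukin 6 response element of acute phase genes, and GTTAAT or its reverse complement ATTAAC, part of the binding site of the liver factor HNF1; the motifs do not overlap here.
Fga: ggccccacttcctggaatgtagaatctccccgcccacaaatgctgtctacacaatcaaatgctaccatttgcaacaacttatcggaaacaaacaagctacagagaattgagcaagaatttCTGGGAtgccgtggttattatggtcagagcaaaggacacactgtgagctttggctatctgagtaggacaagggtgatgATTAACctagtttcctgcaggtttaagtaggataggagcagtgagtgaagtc
Fgb: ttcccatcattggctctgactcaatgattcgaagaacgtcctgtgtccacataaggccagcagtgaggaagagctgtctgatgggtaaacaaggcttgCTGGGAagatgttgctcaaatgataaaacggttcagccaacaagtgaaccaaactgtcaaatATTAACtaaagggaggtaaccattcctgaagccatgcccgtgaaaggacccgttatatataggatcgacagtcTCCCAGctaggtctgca
Fgg: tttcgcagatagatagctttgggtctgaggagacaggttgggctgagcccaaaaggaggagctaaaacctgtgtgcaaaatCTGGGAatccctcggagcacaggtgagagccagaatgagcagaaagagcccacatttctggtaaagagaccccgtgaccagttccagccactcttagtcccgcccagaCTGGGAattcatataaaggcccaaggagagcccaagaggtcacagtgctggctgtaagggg
CTGGGA occurred once in Fga and 2 times each in Fgb and Fgg, and GTTAAT once each in Fga and Fgb and not in the Fgg window. Over all 27457 genes with a promoter in the table, 25.8% of these windows held CTGGGA and 6.46% held GTTAAT. Of the 16 coagulation members with a promoter, 9 (56.2%) held CTGGGA and 6 (37.5%) held GTTAAT; of the 12 complement members with one, 3 (25.0%) held each. A match is a run of letters, not a measured binding site.

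The first comparison asked how tumor differed from adjacent nontumor liver at 67 weeks. RNA of clotting factors, their liver-made inhibitors and most complement members was lower in tumor, whereas that of tissue factor and the plasminogen activators was higher. Protein was not measured, and protein names below stand for RNA levels. Of the 19 coagulation members, 15 fell and 4 rose, and of the 17 complement members, 12 fell and 1 rose (limma, Benjamini-Hochberg adjusted p under 0.05 over all probe sets). Over all 14217 genes, 29.2% fell and 38.8% rose by the same rule; this balance turned under other scalings, with 33.9% lower and 30.8% higher after quantile normalization and 36.5% and 34.1% with array medians subtracted. The median difference, tumor minus nontumor, was -2.92 for coagulation and -1.51 for complement, beside 0.07 for all genes. All 15 of the coagulation members that fell and 10 of the 12 complement members that fell did so by 2-fold or more. Scaling the arrays another way moved the median of all genes by -0.10, to -0.04, and left the direction of every called member as it was.

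**Figure D1:**
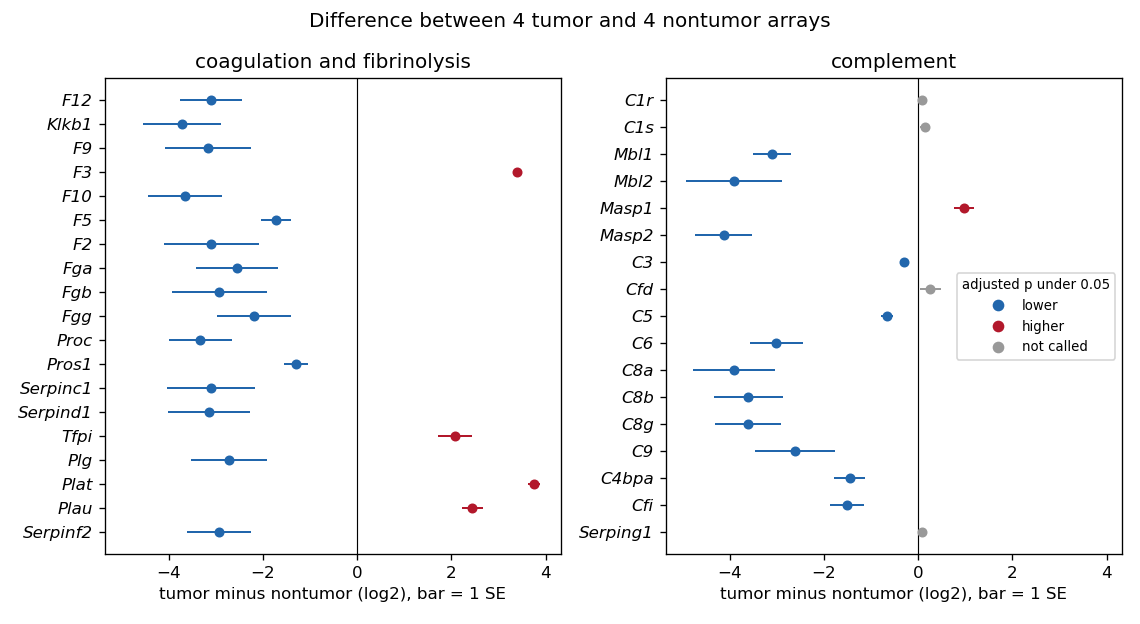
Tumor minus nontumor difference (log2, horizontal axis) of each coagulation member (left) and complement member (right), 4 arrays against 4; points are differences, bars 1 SE, and colour gives the call at adjusted p under 0.05. Plat (3.76) and Masp2 (-4.12) are at the ends, while C1r, C1s, Cfd and Serping1 sit near 0 without a call.

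Factor XII, plasma kallikrein and factor IX, the liver-made proteases of the contact and intrinsic path, all fell. Factor XII (F12), which starts the contact path, stood at 13.08, 13.10, 12.61 and 12.69 on nontumor arrays 1 to 4 and at 10.48, 9.17, 11.54 and 7.91 on tumor arrays 1 to 4, a difference of -3.10 ± 0.66 (SE, n = 4 and 4; adjusted p = 0.0034). Every tumor array was below every nontumor array, and the tumor arrays were spread over several log2 units while the nontumor arrays lay close together. Klkb1, which encodes plasma kallikrein, gave 11.94, 11.75, 11.36 and 11.38 in nontumor and 8.89, 7.22, 9.97 and 5.49 in tumor, a difference of -3.72 ± 0.82 (adjusted p = 0.00398). Its level on tumor array 4 was within the absent range, so the fall there has only a bound. F9, the factor missing in hemophilia B, fell from 13.04 ± 0.13 to 9.88 ± 2.21 (mean ± SD, n = 4 each; difference -3.16, adjusted p = 0.0144). The probe set shared by Kng1, Kng2 and Kng2l1, the kininogens, read 13.90, 13.99, 13.81 and 13.50 in nontumor and 12.44, 11.68, 13.56 and 9.95 in tumor. Tumor array 3 overlapped the nontumor range there, and the difference was -1.89 ± 0.63 (adjusted p = 0.0274), without a call (0.0564 to 0.0641) when nontumor array 1, 2 or 3 or tumor array 2 was left out; without tumor array 4 it was -1.24.

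In the common path, all 3 measured genes fell. Prothrombin (F2), the precursor of thrombin, read 13.66, 13.67, 13.42 and 13.43 in nontumor and 11.68, 10.08, 12.84 and 7.19 in tumor. The fall was 1.63-fold on tumor array 3 and 81.6-fold on tumor array 4, so the mean difference of -3.10 ± 1.01 (8.55-fold; adjusted p = 0.0246) stands for no single tumor pool. Without tumor array 4 it was -2.01, and the call was lost without nontumor array 1 or tumor array 2 (adjusted p 0.0512 to 0.0586). Factor X (F10), which cuts prothrombin, read 12.68, 12.65, 11.97 and 12.01 in nontumor and 9.28, 8.25, 10.83 and 6.34 in tumor (difference -3.65 ± 0.79, adjusted p = 0.00374). F5, the cofactor of factor X, fell less, from 11.87 ± 0.45 to 10.15 ± 0.64 (difference -1.72, adjusted p = 0.0018), and its tumor arrays, from 9.48 to 10.99, were closer to each other than those of F2.

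Fibrinogen is a hexamer of 3 chains, and the 3 genes kept the same order across tumor arrays. Fgb, the beta chain, read 13.87, 13.99, 13.84 and 13.66 in nontumor and 12.28, 10.60, 13.18 and 7.61 in tumor. Fga, the alpha chain, gave 13.82, 13.93, 13.80 and 13.68 against 12.42, 11.15, 13.10 and 8.34, and Fgg, the gamma chain, 14.03, 14.08, 14.04 and 13.94 against 12.94, 11.59, 13.54 and 9.28. Each chain was highest on tumor array 3 and lowest on tumor array 4, and no tumor array reached the nontumor range. The differences were -2.56 ± 0.87 for Fga, -2.92 ± 1.01 for Fgb and -2.19 ± 0.78 for Fgg, with adjusted p of 0.0288, 0.0311 and 0.0351. Leaving out any nontumor array or tumor array 2 took the call from all 3 (adjusted p 0.0516 to 0.0771), and without tumor array 4 the differences were -1.59, -1.82 and -1.33. A second probe set of Fga fell by 4.07, and a second probe set of Fgb, at a nontumor mean of 7.53, fell by 0.55; the last of Fgb was within the absent range on all 12 arrays and is not read.

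The inhibitors that hold coagulation back moved in both directions. Antithrombin (Serpinc1) read 13.80, 13.78, 13.26 and 13.15 in nontumor and 11.24, 10.40, 12.62 and 7.30 in tumor (difference -3.11 ± 0.94, adjusted p = 0.0177). Heparin cofactor II (Serpind1) fell from 12.92 ± 0.16 to 9.78 ± 2.11 (adjusted p = 0.0123), protein C (Proc), which inactivates factors V and VIII, from 12.37 ± 0.13 to 9.04 ± 1.62 (adjusted p = 0.00252), and its cofactor protein S (Pros1) from 11.90 ± 0.42 to 10.60 ± 0.44 (adjusted p = 0.00237). Of the 4, protein S had the smallest fall. Tissue factor pathway inhibitor (Tfpi) went the other way, from 9.01, 9.22, 8.86 and 8.62 in nontumor to 11.05, 12.16, 10.18 and 10.65 in tumor, with no overlap (difference 2.08 ± 0.37, adjusted p = 0.00124). A second Tfpi probe set rose 2.84-fold.

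Tissue factor (F3), the membrane receptor that starts coagulation, read 6.17, 6.25, 6.22 and 6.17 in nontumor and 9.44, 9.73, 9.63 and 9.63 in tumor. The 4 tumor arrays agreed within 0.28, unlike those of the plasma factors, and the difference was 3.41 ± 0.08 (10.6-fold, adjusted p = 2.2e-07). Because the nontumor level lay just above the absent range (5.88 to 6.01 on those arrays), the fold is more uncertain than its SE.

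In fibrinolysis, the substrate and the activators moved in opposite directions. Plasminogen (Plg), the liver-made precursor of plasmin, fell from 13.67 ± 0.12 to 10.95 ± 1.96 (difference -2.72, adjusted p = 0.0166), and its inhibitor alpha-2-antiplasmin (Serpinf2) from 12.50 ± 0.19 to 9.57 ± 1.61 (difference -2.93, adjusted p = 0.00478). Tissue plasminogen activator (Plat) read 7.80, 8.36, 8.09 and 7.89 in nontumor and 11.76, 11.67, 11.80 and 11.94 in tumor, a difference of 3.76 ± 0.13 (13.6-fold, adjusted p = 6e-07). Urokinase (Plau) read 8.91, 9.39, 8.97 and 8.58 against 11.47, 11.78, 10.82 and 11.57, a difference of 2.45 ± 0.23 (adjusted p = 3.5e-05), and a second Plau probe set rose by 2.62. Both activators were above the nontumor range on every tumor array, and Plat hardly varied between tumor arrays.

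**Figure D2:**
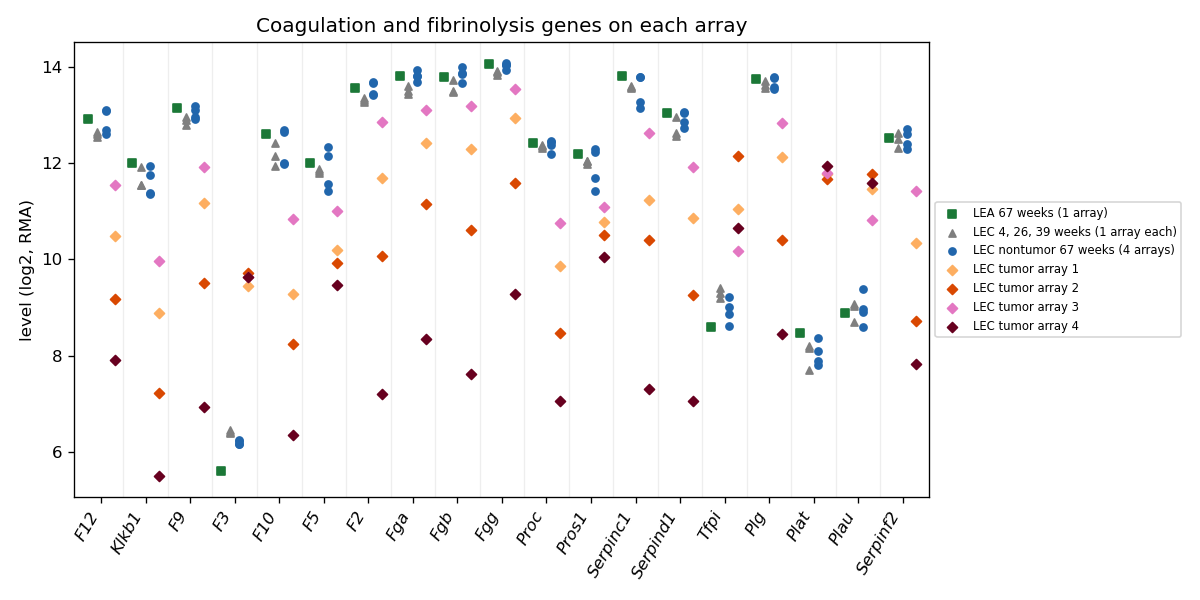
Level (log2, RMA, vertical axis) of the 19 coagulation and fibrinolysis members on each of the 12 arrays, 1 symbol per array, ordered from contact factors to fibrinolysis. The tumor diamonds of F2 run from 7.19 to 12.84 below the nontumor points, while those of F3 and Plat lie together above them.

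Complement was less uniform. The classical path proteases C1r and C1s, which are encoded next to each other on chromosome 4, did not pass the test. C1s read 12.95, 12.98, 12.68 and 12.57 in nontumor and 12.87, 12.87, 12.97 and 13.02 in tumor (difference 0.14 ± 0.11, adjusted p = 0.262), and C1r 13.17, 13.16, 13.005 and 12.99 against 13.23, 13.02, 13.17 and 13.24 (difference 0.08 ± 0.08, adjusted p = 0.393). Tumor and nontumor arrays overlapped for both, and the sign of both depended on the scaling. The probe set shared by C4a and C4b, the next component, rose slightly, from 13.41, 13.40, 13.12 and 13.11 to 13.68, 13.64, 13.52 and 13.65 (difference 0.37 ± 0.10, adjusted p = 0.009), and by 0.24 and 0.26 under the other scalings. All 4 probe sets shared by C2 and Cfb, the proteases of the classical and alternative C3 convertases, fell, by 0.48 to 0.98; on the one with the highest mean, nontumor arrays lay between 12.93 and 13.39 and tumor arrays between 11.86 and 12.64 (adjusted p = 0.00144).

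Lectin path genes fell steeply, with 1 exception. Mbl1 and Mbl2 encode mannose-binding lectins, which recognise microbial sugars. Mbl2 read 12.33, 12.40, 11.92 and 11.97 in nontumor and 9.53, 7.98, 10.58 and 4.93 in tumor (difference -3.90 ± 1.02, adjusted p = 0.00915), and Mbl1 fell from 11.65 ± 0.22 to 8.55 ± 0.96 (difference -3.10, adjusted p = 0.00025). Mbl2 was within the absent range on tumor array 4, and a second probe set of it fell by 2.98. Masp2, the lectin-bound protease that cuts C4 and C2, read 11.81, 11.77, 11.44 and 11.34 against 8.18, 6.98, 9.0 and 5.72 (difference -4.12 ± 0.60, 17.4-fold, adjusted p = 0.00043), the largest fall of a member; of its further probe sets 1 fell by 3.83 and 1, at a nontumor mean of 6.72, rose by 0.83. Masp1, which activates Masp2, read 10.36, 10.38, 10.42 and 9.95 against 11.37, 11.42, 10.59 and 11.65 (difference 0.98 ± 0.22, adjusted p = 0.00436). Its probe sets disagreed: another fell by 2.16 from a nontumor mean of 9.5, the remaining 1 differed by -0.06 (adjusted p = 0.561), and the mean of all was -0.41, so Masp1 has no settled direction.

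C3, where the paths meet, was among the brightest probe sets on the array, at 14.34, 14.32, 14.30 and 14.26 in nontumor and 14.09, 13.94, 14.17 and 13.83 in tumor. The ranges did not overlap, but the difference was only -0.30 ± 0.09 (adjusted p = 0.0147) and was not called after a further quantile normalization (-0.22, adjusted p = 0.0702). Near the top of the scale a probe set may be saturated, which would shrink a difference; this was not tested. Cfd, factor D of the alternative path, read 9.86, 10.16, 9.26 and 9.07 against 9.74, 9.87, 10.07 and 9.71 and did not pass the test (difference 0.26 ± 0.23, adjusted p = 0.335), with a sign that turned after quantile normalization.

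All 6 measured genes of the terminal path, which builds the membrane pore, fell. C8a, C8b and C8g encode the 3 chains of C8, and C8a and C8b are neighbours on chromosome 5. C8a read 12.64, 12.71, 12.24 and 12.08 in nontumor and 9.73, 8.10, 10.43 and 5.74 in tumor (difference -3.92 ± 0.87, adjusted p = 0.00415), and C8b and C8g differed by -3.60 and -3.61. C6 read 12.65, 12.68, 11.42 and 10.86 against 8.85, 8.49, 10.32 and 7.92 (difference -3.01 ± 0.57, adjusted p = 0.00178). C6 had the widest nontumor spread of any member, with arrays 3 and 4 well below arrays 1 and 2, though still above every tumor array. C9, the pore-lining subunit, fell from 13.88 ± 0.11 to 11.27 ± 2.05 (difference -2.61, adjusted p = 0.0243); it lost the call without nontumor array 3 or tumor array 2 (0.0516 to 0.059) and was -1.70 without tumor array 4. C5 was the mildest of the 6, at 12.38, 12.45, 12.21 and 11.94 against 11.70, 11.46, 11.46 and 11.72 (difference -0.66 ± 0.12, adjusted p = 0.00171).

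Of the regulators, factor I (Cfi), which cuts C3b and C4b, fell from 13.68 ± 0.10 to 12.17 ± 0.85 (difference -1.51, adjusted p = 0.00572), and C4bpa, a cofactor of factor I, from 13.35 ± 0.25 to 11.89 ± 0.75 (difference -1.45, adjusted p = 0.00468). Serping1, the C1 inhibitor that also restrains factor XII and kallikrein, read 13.20, 13.32, 13.04 and 12.90 in nontumor and 13.16, 13.19, 13.30 and 13.17 in tumor, overlapping and not called (difference 0.09 ± 0.10, adjusted p = 0.446), with a sign that turned under both other scalings.

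**Figure D3:**
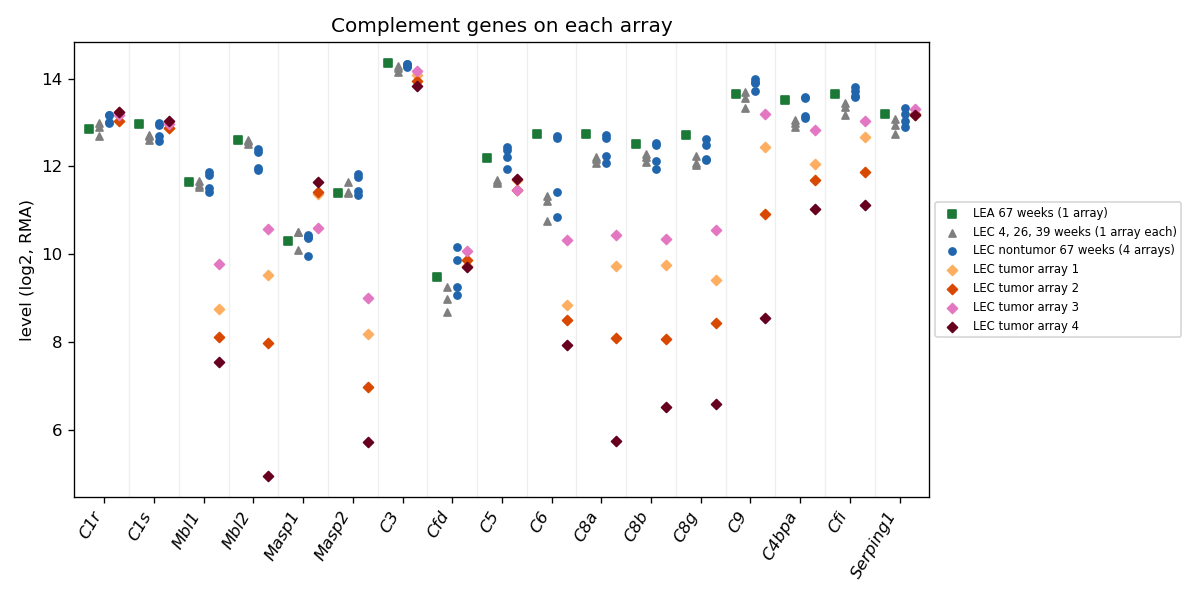
Level (log2, RMA, vertical axis) of the 17 complement members on each of the 12 arrays, 1 symbol per array, ordered by path. C1r, C1s, C3 and Serping1 stay between 12.57 and 14.35 on every array, whereas the tumor arrays of Mbl2 fall from 10.58 to 4.93.

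The 4 tumor arrays differed widely among themselves. Of the 27 members that fell, 26 were highest on tumor array 3, then 1, then 2, and lowest on tumor array 4; C5 was the exception. This order was noticed in the values and is a description, held by 6.98% of all genes, by 18.2% of the 4147 genes that fell in tumor, and by 13 of 13 hepatocyte markers. The median change of coagulation members against the nontumor mean was -0.84 on tumor array 3, -1.68 on array 1, -3.24 on array 2 and -5.22 on array 4. For complement members it was -0.68, -1.30, -1.81 and -2.56 in the same order. The steepest falls on tumor array 4 were those of Mbl2 (-7.22, within the absent range), C8a (-6.68) and F2 (-6.35), whereas C3 fell there by 0.47. C8a (5.74) and Masp2 (5.72) lay just above the highest absent control of that array (5.59), so the size of their falls there is uncertain. The members without a call (C1r, C1s, Cfd and Serping1), the risen F3, Plat, Tfpi and Plau, and the main probe set of Masp1 did not follow this order.

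Cell type markers were read beside these values. For each list the median level and the median difference over its genes are given, and the gene at the median level can change between groups. Of 13 hepatocyte markers, 9 fell and none rose. Albumin (Alb) was among those not called (difference -0.62, adjusted p = 0.13 by limma). It lay near the top of the scale (14.53 to 14.57 in nontumor), where, as for C3, saturation was not tested. The others not called were Apoa1 (-2.41, adjusted p = 0.0521), Ahsg (-2.20, 0.0773) and Apoc3 (-2.00, 0.0594), by limma. The median level of the 13 was 13.79 to 13.93 on nontumor arrays and 13.20, 12.68, 11.84 and 8.50 on tumor arrays 3, 1, 2 and 4 (median difference -2.20). Bile duct markers rose in 8 of 8 (median level 7.46 to 8.36 in nontumor, 11.16 to 11.71 in tumor, median difference 3.82), and matrix and stellate cell markers in 9 of 10 (8.04 to 8.66, then 10.51 to 11.40, difference 2.25). Endothelial markers rose in 4 and fell in 3 of 7 (8.98 to 9.38, then 9.94 to 10.11, difference 0.57), macrophage markers rose in 2 and fell in 3 of 6 (10.61 to 11.25, then 8.51 to 9.22, but a median difference of only -0.50), and neutrophil and mast cell markers rose in 5 of 5 (7.43 to 7.95, then 9.59 to 9.79, difference 1.25). Platelet markers fell in 3 and rose in 1 of 4 (7.44 to 7.58, then 6.88 to 6.96, difference -0.41), and lymphocyte markers rose in 2 of 6 and fell in none (7.06 to 7.29, then 6.79 to 7.79, difference 0.07). The part of cell composition in the members' differences was not tested. The array's control probe for the 3' end of Gapdh read 13.13 to 13.51 on all arrays, 13.43 on tumor array 4, whereas that for beta-actin read 12.78 to 13.29 outside tumor and 14.01 to 14.05 on the tumor arrays.

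**Figure D4:**
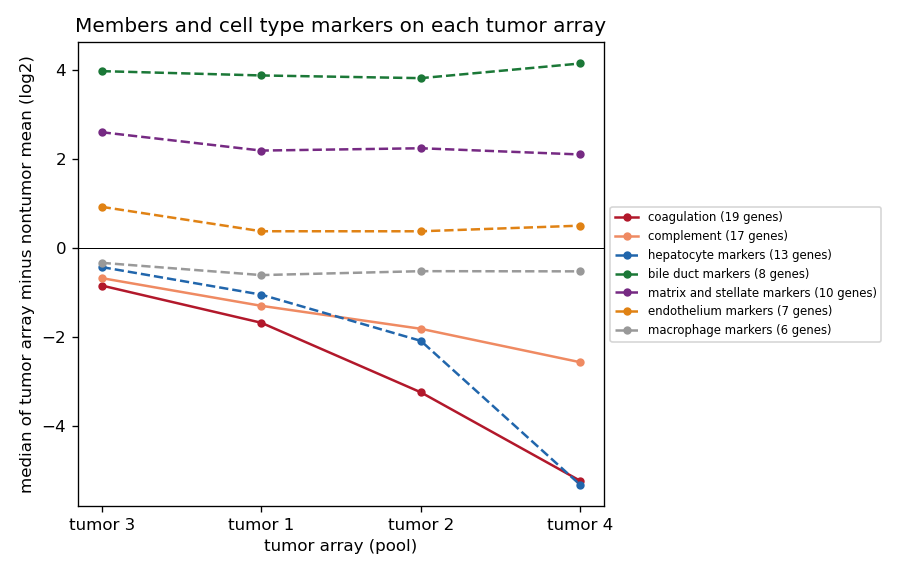
Median over each gene list of the level on 1 tumor array minus the nontumor mean (log2, vertical axis), for the 4 tumor arrays in the order 3, 1, 2, 4; solid lines are coagulation and complement members, dashed lines cell type markers. Coagulation members (-0.84 to -5.22) and hepatocyte markers (-0.43 to -5.31) descend together, while bile duct markers stay between 3.81 and 4.14.

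The nontumor arrays also fell into pairs. Arrays 1 and 2 were both above arrays 3 and 4 for 31 of the 36 members (86.1%), with a median gap of 0.34, beside 38.7% of all genes. This too was noticed in the values. The pattern was not particular to the members: 6 of 6 macrophage and 9 of 13 hepatocyte markers had it. By contrast, 0 of 8 bile duct and 0 of 10 matrix and stellate cell markers did. F10 showed it, at 12.68 and 12.65 against 11.97 and 12.01, as did C6 and antithrombin. Against nontumor arrays 1 and 2 alone, or 3 and 4 alone, 7 of the 19 coagulation members fell by the same test, each time with fewer arrays.

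Other genes of these systems moved in both directions, as all genes did. Among 24 further coagulation and fibrinolysis genes, 12 rose and 9 fell, beside 38.8% of all genes higher and 29.2% lower. Serpina5 and F2rl3, counted among those that fell, were within the absent range on all 12 arrays, so their calls are not read. The 6 with the largest called differences were annexin A2 (Anxa2, 2.72), a surface receptor for plasminogen and Plat, thrombomodulin (Thbd, 2.52), the thrombin receptor F2r (2.47), the thrombin inhibitor Serpine2 (2.44), and, lower, histidine-rich glycoprotein (Hrg, -2.59) and Cpb2 (-2.55), which slows fibrinolysis. Outside that ranking, and chosen after their values were seen, the vitamin K enzymes Ggcx (-0.77) and Vkorc1 (-1.05) fell. So did Lman1 (-0.95) and Mcfd2 (-0.67), the carrier of factors V and VIII out of the endoplasmic reticulum, which were chosen in the same way.

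Among 21 further complement genes, 8 rose and 7 fell, near the shares of all genes (38.8% higher and 29.2% lower). Vitronectin (Vtn, -3.32), which binds the terminal complex, carboxypeptidase N (Cpn1, -2.86), which inactivates anaphylatoxins, C4bpb (-2.70), the partner chain of C4bpa, and ficolin A (Fcna, -2.29), a lectin path receptor, fell. The collectin Colec12 (3.21) rose, and so did the membrane inhibitor Cd55, which was within the absent range on all 4 nontumor arrays and at 7.66 ± 0.52 in tumor, so that its difference of 2.59 and its place among the 6 are not exact. Of 17 measured liver transcription factors and interleukin 6 pathway genes, 6 rose and 7 fell. Il6, counted among the risen, was within the absent range on all 12 arrays, so its call is not read. The largest differences were Foxa3 (-2.45), Cebpd (1.71), Nr1h4 (-1.61), Nr1i3 (-1.36), Cebpb (-1.32) and Foxa1 (-1.23). Over all genes the shares were those given above, which depend on the scaling.

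The second comparison set nontumor LEC liver against LEA liver at the same age. No member was called: 0 of 19 coagulation and 0 of 17 complement members were higher or lower by limma, beside 0.331% of all genes lower and 0.232% higher. F3 was the only 1 of the 36 members with an unadjusted p under 0.05 by limma, beside 1758 of all 14217 genes. The differences ran from -0.83 ± 0.90 for C6 to 0.60 ± 0.12 for F3 (SE; adjusted p = 0.757 and 0.0887). LEA is 1 pool, and the spread in this test came from the tumor and nontumor arrays together, so SEs of up to 1.61 leave room for sizeable differences in the members that varied in tumor. With the spread of the nontumor arrays alone, again 0 members were called, of 9 genes lower and 8 higher in all. F3 in LEA, at 5.60, lay within the absent range, below its 6.17 to 6.25 in nontumor; against nontumor arrays 3 and 4 alone it was called (difference 0.59, adjusted p = 0.046).

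C6 in LEA, at 12.73, was close to nontumor arrays 1 and 2 (12.65 and 12.68) and above arrays 3 and 4 (11.42 and 10.86). The fibrinogen chains were nearly level, with Fga at 13.81 in LEA and 13.81 ± 0.10 in nontumor, and prothrombin at 13.56 and 13.55 ± 0.14. The median difference, nontumor minus LEA, was -0.05 for coagulation and -0.05 for complement, beside -0.03 for all genes.

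The third set of values followed LEC liver over age, with 1 pool at each age and so no test. A member was counted where a pool lay outside the 4 nontumor arrays at 67 weeks and at least 2-fold from their mean. At 4 weeks 1 member was lower and 0 higher, beside 1.52% and 0.76% of all genes. At 26 weeks 0 members were lower or higher, beside 0.345% and 0.971%, and at 39 weeks again 0, beside 0.331% and 0.893%. The 1 member was C6, at 10.75, 11.22 and 11.32 at 4, 26 and 39 weeks against a nontumor mean of 11.90 ± 0.91. It lay below all 4 nontumor arrays at 4 weeks only.

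Smaller shifts ran the same way for 6 members, each below all nontumor arrays and LEA on all 3 younger pools. They were F2 (13.27 to 13.34 against 13.42 to 13.67), Fga (13.43 to 13.60 against 13.68 to 13.93), Fgg (13.82 to 13.91 against 13.94 to 14.08), C5 (11.63 to 11.70 against 11.94 to 12.45), Cfi (13.18 to 13.44 against 13.59 to 13.80) and C4bpa (12.90 to 13.06 against 13.11 to 13.57). That is 16.7% of the 36 members beside 3.31% of all genes, a count made after the values were seen. The shared probe sets of C4a and C4b (12.50 to 12.54 against 13.11 to 13.41) and of the kininogens (12.75 to 12.92 against 13.50 to 13.99) showed wider gaps in the same direction, and the latter passed the 2-fold rule at 26 weeks (-1.04). F3 alone lay above both 67-week groups on the younger pools, at 6.40 to 6.46, which is near the absent range of those arrays (6.15 to 6.22). Mbl2 stood the other way for the nontumor arrays: they read 11.92 to 12.40, below the 12.51 to 12.59 of the younger pools and the 12.61 of LEA. The other members, among them Proc, Plg, C8b and Mbl1, had at least 1 younger pool within the range of the nontumor and LEA arrays.

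**Figure D5:**
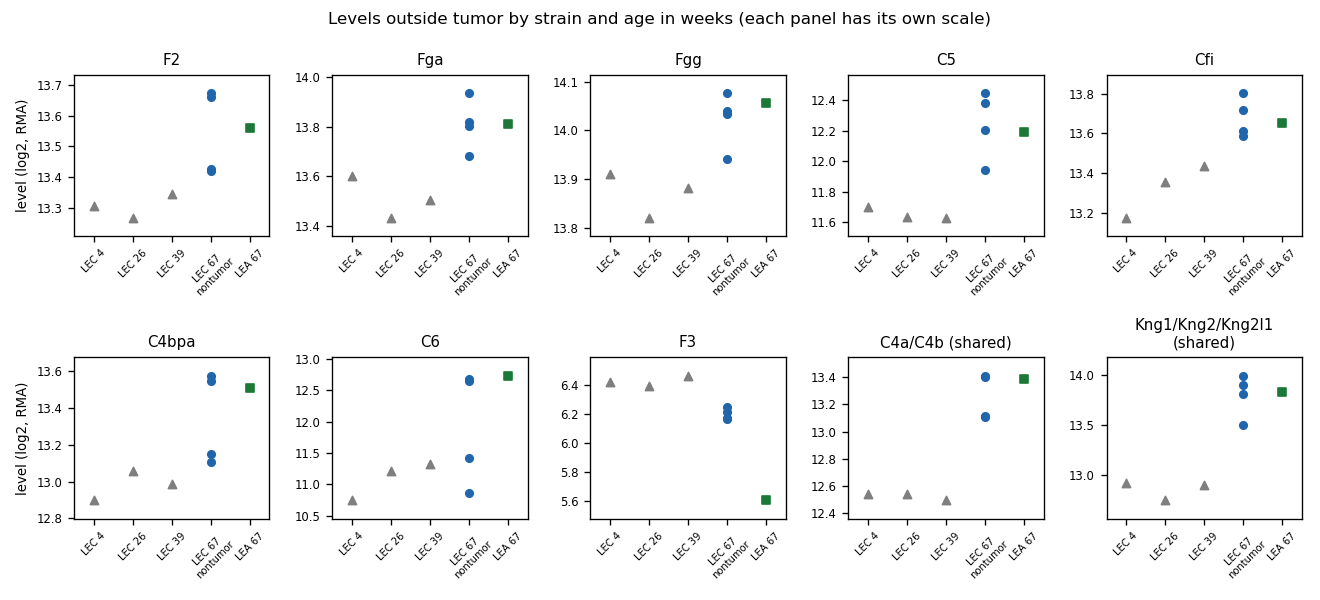
Level (log2, RMA, vertical axes, each panel on its own scale) of 8 members and 2 shared probe sets on the LEC pools of 4, 26 and 39 weeks (triangles), the 4 nontumor LEC arrays (circles) and the LEA array (square) at 67 weeks. C5 and the C4a and C4b probe set show the younger pools below all 67-week arrays, and C6 shows its nontumor arrays split.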

How the data were processed

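Liver RNA pools, 3 µg each, were hybridised to 12 Affymetrix rat expression arrays. The deposited values are log2 levels that, per the submitters' processing notes, the authors made by RMA (R version 2.6.1); whether all arrays were normalised together is not given in the sources used here. After 57 control probe sets were dropped from 31099, 31042 were tested, of which 20826 had 1 gene symbol in the platform annotation, 436 several and 9780 none, and 20758 were matched to RefSeq by Entrez number. Each gene is represented by its probe set with the highest mean.

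Members and gene lists were chosen with earlier results of these data known. Members are named by role; of each further list, the 6 genes with the largest called difference are named. limma 3.58.1 in R 4.3.3 was fitted on all 12 arrays with 1 mean for each of 6 groups (6 residual and 2.84 prior degrees of freedom). Tests were two-sided, with Benjamini-Hochberg over all probe sets and a threshold of 0.05. The fit was run on simulated data with the same spread in every group. That setting does not cover members whose tumor arrays varied far more than their nontumor arrays. The lone pools are assumed to vary like the replicated groups. The number of arrays limits the precision. Alternatives covered scaling, dim probe sets, a 2-fold threshold, the variance prior, array weights, probe set choice, the replicate block and leaving out each array. The array numbers of tumor and nontumor pools do not show whether pools of one number come from the same rats.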

Additional observations from a re-analysis of the deposited data

Results flagged for a closer look

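Among 72 groups of 4 arrays checked, 1 value stood far from the others of its group: Masp1, encoding a lectin path protease, was at 9.95 on nontumor array 4, with the next array at 10.36. Chance alone marks about 1 group in 20.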

How the results depend on the processing

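Under 9 other settings, 15 coagulation and 10 to 13 complement members fell, and 3 or 4 coagulation members rose. Leaving out 1 array gave 11 to 15 coagulation and 11 to 12 complement members lower, and 4 and 1 higher. With the title number as a replicate block, 15 and 12 fell and 4 and 1 rose, as without it; correlations of same-numbered arrays were 0.05, 0.14, -0.08 and 0.14, not above 0.1 in every pair; tumor arrays 1, 2 and 4 correlated best with their own number and tumor array 3 did not, so pairing is not settled. The block changed no member's call. With nontumor arrays 1 and 2 alone or 3 and 4 alone, chosen after seeing the data, 7 coagulation members were called lower, with fewer arrays. Coagulation members that lost the call kept their sign, and 11 and 9 complement members were called lower. Complement members higher were 0 with a 2-fold threshold and with probe sets averaged by gene, and 4 against nontumor arrays 3 and 4 alone, where 1 coagulation member was above LEA.

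Signs turned for Masp1 (-0.41, mean over probe sets) and for 4 members near 0: after quantile normalization C1s was -0.00035, C1r -0.088, Cfd -0.0067 and Serping1 -0.075; with array medians subtracted C1r was -0.021 and Serping1 -0.014; against nontumor arrays 1 and 2 they were -0.028 (C1s), -0.0022 (C1r), -0.16 (Cfd) and -0.054 (Serping1). The cause was not tested.

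Leaving out tumor array 4 moved 5 members by over 1.5 times (F2, Fga, Fgb, Fgg, C9), and leaving out tumor array 3 moved 1, the uncalled Serping1 (0.06).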
